A study of Rattus norvegicus with 8 samples.

Results

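The genes described here encode the cytochrome P450 enzymes and 3 families of liver enzymes that conjugate or oxidise small molecules: the UDP-glucuronosyltransferases (Ugt), the sulfotransferases (Sult) and the alcohol dehydrogenases (Adh). Members were the genes whose symbol begins with Cyp, Ugt, Sult or Adh followed by a digit, after the array's transcript accessions were matched to RefSeq. Of 96 such genes on the array, 47 had a probe well above background (the scanner software's call against the local background) on at least 1 of the 8 arrays and were kept, among 23181 genes tested in all. They comprised 27 of 47 genes of P450 families 1 to 4, 9 of 18 genes of the other P450 families, 2 of 13 Ugt, 5 of 12 Sult and 4 of 6 Adh genes.

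Expression was measured in ATSC, mesenchymal stem cells cultured from subcutaneous fat of Sprague-Dawley males, on single-colour rat genome arrays. The IRI group (n = 3) held ATSC on liver after ischemia-reperfusion injury, a block of the blood supply followed by its return, the non-IRI group (n = 4) held ATSC on liver without that injury, and the in vitro group (n = 1) held ATSC in culture. The labels give no genotype, age, dose or time on the liver, name no sort that would separate ATSC from liver cells, and leave unstated whether replicates came from separate animals. The p-values then measure only the spread between these samples. The 3 IRI arrays and the in vitro array shared slide 1, and the 4 non-IRI arrays shared slide 2. Injury and slide therefore cannot be told apart in IRI minus non-IRI, whereas the difference IRI minus in vitro lies within slide 1. Its p-values still draw on the spread of the non-IRI arrays, since 1 model was fitted to all arrays.

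P450 enzymes are heme proteins that insert oxygen into drugs, steroids, bile acid precursors, retinoids and fatty acids. Families 1 to 4 act mostly on foreign compounds and fatty acids, and the other families mostly on sterols, vitamins and hormones. The products are often joined to glucuronic acid by Ugt enzymes or to sulfate by Sult enzymes, and the hepatocyte is the main site of much of this chemistry. Several rat P450 genes, Cyp2c11 and Cyp2c12 among them, are known for sex-dependent expression in liver.

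Levels are log2 of the processed signal relative to the array's 75th percentile, so a level of 0 equals that percentile. The 75th percentile itself was between 155.7 and 291.3 signal units, and 53.5% to 59.7% of spots were well above background. The mean level of 9 stromal marker genes lay between 4.57 and 4.90 on all 8 arrays, and all 9 were well above background on each. Single markers moved under this mean. Thy1 read -1.78 to -1.36 in IRI, -1.03 to -0.001 in non-IRI and 0.55 in vitro. Eng went the other way, at -0.89 to 0.88, -1.32 to -0.04 and -2.31. In IRI minus non-IRI 6 of the 9 differences were positive and 3 negative, with 0 at an adjusted p under 0.05 (limma). The mean level of 12 hepatocyte markers was 0.25, 0.33 and 0.23 for the IRI arrays in order of replicate, -3.06, -2.43, -1.34 and -1.96 for the non-IRI arrays in that order, and -3.96 for culture. Below, values per array are given in this same order. Of those 12, 11 were well above background on each IRI array, 8 to 11 on the non-IRI arrays and 8 in vitro, while 2 further listed markers (Cps1 and Tat) were not well above background on any array. The mean level of 8 macrophage and Kupffer cell markers was 2.66 to 3.24 in IRI, 1.37 to 2.64 in non-IRI and -4.60 in vitro. In these bulk samples a change in the number of cells of a type and a change in RNA per cell cannot be told apart.

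The 250 bases before the transcription start are shown for 3 members on which the results turn: Sult2a6 and Sult1b1, which were well above background on IRI arrays alone, and Cyp26b1, which was higher on liver than in culture. They are from RefSeq (GRCr8), which held a promoter for 39 of the 47 members, and run 5′ to 3′ on the gene's strand. Capitals mark matches, on either strand, to TATAAA (the TATA box), GTTAAT (part of the site of the liver factor HNF1), AGGTCA (the repeat unit of nuclear receptor sites), CCAAT and GCGTG (the core of the dioxin response element). None of these motifs overlaps another among the matches shown.
Sult2a6, chr1:84097809-84098058, minus strand: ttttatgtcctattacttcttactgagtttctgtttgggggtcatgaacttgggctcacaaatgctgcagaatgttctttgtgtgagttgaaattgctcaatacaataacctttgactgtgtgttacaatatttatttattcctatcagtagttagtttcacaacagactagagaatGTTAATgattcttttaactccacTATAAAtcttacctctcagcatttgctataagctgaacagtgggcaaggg
Sult1b1, chr14:20771667-20771916, plus strand: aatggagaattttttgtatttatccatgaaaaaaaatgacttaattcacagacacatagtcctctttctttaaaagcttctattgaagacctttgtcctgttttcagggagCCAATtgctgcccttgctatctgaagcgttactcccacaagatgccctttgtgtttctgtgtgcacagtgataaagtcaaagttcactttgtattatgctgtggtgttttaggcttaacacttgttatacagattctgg
Cyp26b1, chr4:118616177-118616426, minus strand: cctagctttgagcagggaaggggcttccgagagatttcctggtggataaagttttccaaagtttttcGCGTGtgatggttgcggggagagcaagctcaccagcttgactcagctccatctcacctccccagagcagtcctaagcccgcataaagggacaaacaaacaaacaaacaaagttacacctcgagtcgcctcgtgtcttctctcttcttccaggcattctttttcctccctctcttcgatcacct
The Sult2a6 window holds GTTAAT and TATAAA, the Sult1b1 window CCAAT and the Cyp26b1 window GCGTG. Among all 27457 promoters, 6.46% hold GTTAAT, 13.1% TATAAA, 13.7% AGGTCA, 34.3% CCAAT and 27.2% GCGTG. Among the 39 member promoters the counts were 4 with GTTAAT, 9 with TATAAA, 10 with AGGTCA, 19 with CCAAT and 14 with GCGTG. A match describes the letters of the window and is not a binding site.

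Many enzymes known from rat liver were not well above background on any array. Among them were Cyp1a2, Cyp3a2, Cyp2d2, Cyp2c13 and Cyp2b1 of the drug-metabolising families. Cyp7a1 and Cyp8b1 of bile acid synthesis, Ugt1a1, the listed Ugt2b genes and Adh4 were others. Of the 47 kept members, 17 were well above background on all 8 arrays, 9 on a single array, 24 in vitro and 23 on liver arrays but not in vitro. The 9 kept through a single array were Cyp2a2, Cyp2b15, Cyp2f4, Cyp2r1 and Sult1e1 (each on 1 non-IRI array), Cyp2c12 and Cyp4a3 (on IRI 2) and Cyp2c11 and Cyp17a1 (in vitro), and they had levels of -4.53 to -3.21 there, and the highest level among the genes not kept was -4.43. The number of members well above background was 32, 33 and 30 in IRI, 26, 28, 29 and 30 in non-IRI, and 24 in vitro. IRI 3 and non-IRI 4 had equal counts, so the groups touched.

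**Figure D1:**
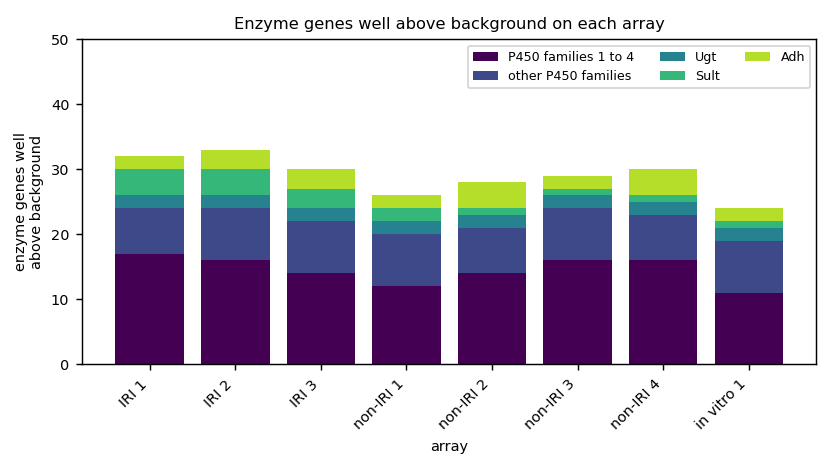
Number of enzyme genes well above background (y axis, stacked by family) on each of the 8 arrays (x axis). The total was 30 to 33 on the IRI arrays, 26 to 30 on the non-IRI arrays and 24 in vitro.

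**Figure D2:**
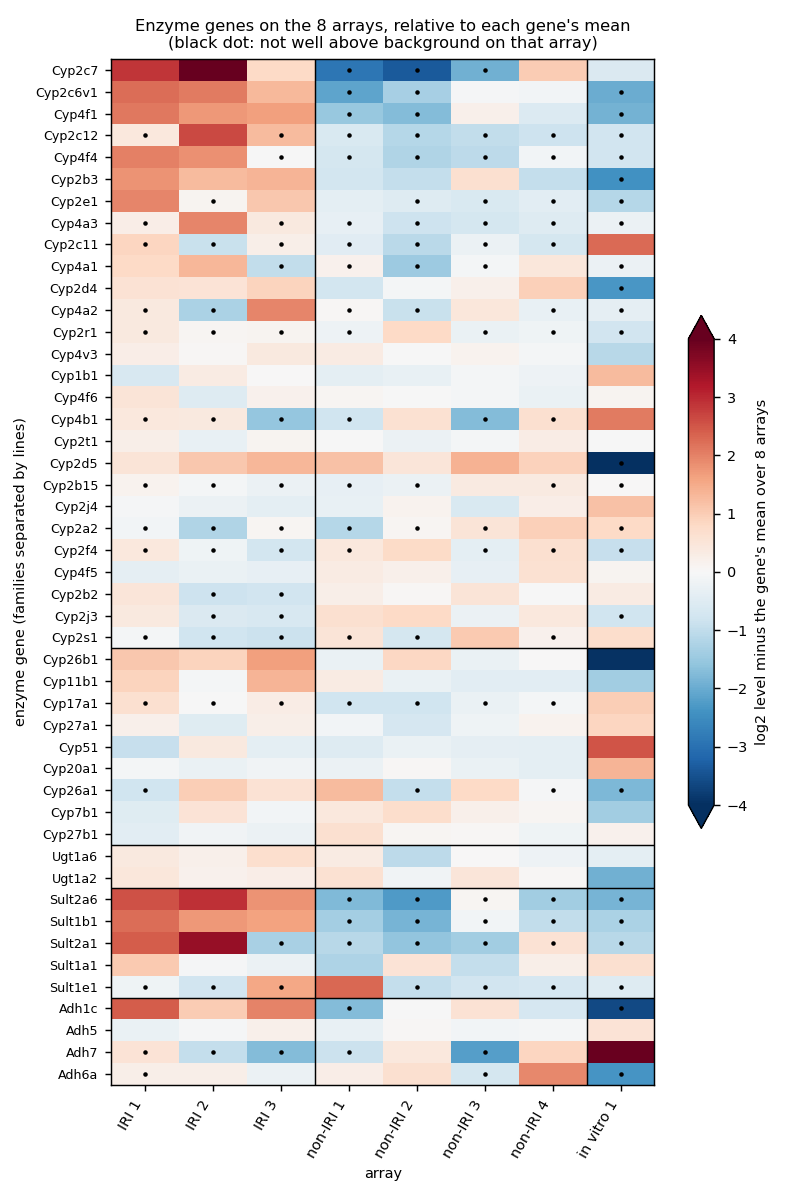
Level of the 47 kept enzyme genes (rows, grouped by family) on the 8 arrays (columns), as log2 level minus the gene's mean over the arrays, with the colour scale ending at 4 in either direction and black dots where the probe was not well above background. A block of P450 and Sult genes is high on the IRI arrays, as is Adh1c alone among the Adh genes, and Cyp2d5, Cyp26b1 and Adh7 stand apart in vitro.

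The first comparison asks how the enzymes differed between ATSC on injured and on uninjured liver. Of the 47 members 4 rose in IRI: the sulfotransferases Sult2a6 and Sult1b1 and the P450 genes Cyp4f1 and Cyp2c6v1 (limma, adjusted p under 0.05 over all genes). No member fell, and at an unadjusted p under 0.05 the numbers were 14 higher and 0 lower, where 14.3% of all genes lay under that p, 5.47% higher and 8.88% lower. Over all genes 2.64% were called, 0.345% higher and 2.3% lower. The median log2 difference of the members was 0.15, with 33 positive and 14 negative, against 0.003 for all genes tested. IRI and non-IRI arrays did not overlap for 12 members, all 12 higher in IRI, where 15.5% of all genes did not overlap, 6.38% higher and 9.13% lower in IRI. Of these 12, 5 (Sult2a6, Sult1b1, Cyp2c12, Cyp4a3 and Cyp4f4) were kept only through IRI arrays, so the filter itself favoured that direction for them, and Cyp17a1 was well above background in vitro alone. The counts over the members are therefore a description. The members Sult2a6 and Sult1b1, both called, are among those 5.

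Sult2a6, a sulfotransferase of the hydroxysteroid and bile acid family, had levels of -2.08, -1.73 and -2.83 in IRI, -6.42, -6.91, -4.57 and -6.04 in non-IRI, and -6.51 in vitro. It was well above background on the 3 IRI arrays and on none of the others, so it was kept only through the arrays on which it is high. The rise over non-IRI was at least 5.19-fold (limma, adjusted p = 0.0151). Here and below, "at least" means that each array of a group with no array well above background was set to its lowest level well above background, or to the gene's own level if higher. The p-value beside such a fold is that of the fitted difference between the measured levels, not of the fold itself. Without IRI 2 the adjusted p of Sult2a6 was 0.0670 and without non-IRI 4 it was 0.0514. Within slide 1 it was at least 4.66-fold higher in IRI than in vitro (adjusted p = 0.0101).

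Sult1b1, which sulfates thyroid hormone and small phenols, had levels of -3.02, -3.52 and -3.64 in IRI, -6.63, -7.11, -5.37 and -6.24 in non-IRI, and -6.54 in vitro. Again the 3 IRI arrays alone were well above background, so Sult1b1 too was kept only through the arrays on which it is high. The rise was at least 2.35-fold (limma, adjusted p = 0.0109). It passed without each array in turn, with an adjusted p of 0.0471 at most. The related Sult2a1 read -3.16 and -2.07 on IRI 1 and IRI 2 but -6.88 on IRI 3, and -7.15 to -4.99 in non-IRI. IRI 3 lay among the non-IRI arrays, none of which was well above background. The gene was at least 1.502-fold higher in IRI and was not called (limma, adjusted p = 0.386). Of the remaining Sult genes, Sult1a1, a phenol sulfotransferase, was well above background on all 8 arrays at -3.36 to -1.08, with a difference of 0.61 ± 0.52 (SE; limma, adjusted p = 0.664). Sult1e1, the estrogen sulfotransferase, was well above background on non-IRI 1 alone and was not called (0.942).

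Cyp4f1, a fatty acid and eicosanoid hydroxylase, had levels of -1.18, -1.55 and -1.65 in IRI, -4.82, -5.04, -3.09 and -3.84 in non-IRI, and -5.20 in vitro. The IRI arrays lay close together and above every non-IRI array, of which non-IRI 3 and non-IRI 4 were well above background. The rise was 2.74 ± 0.47 (SE) on the log2 scale (limma, adjusted p = 0.0268). Cyp2c6v1, a member of the drug-metabolising Cyp2c family, had levels of -1.77, -1.93 and -2.70 in IRI, -6.09, -5.33, -4.04 and -4.11 in non-IRI, and -5.97 in vitro, and rose by 2.76 ± 0.54 (0.0447). For both genes the same 2 non-IRI arrays were the higher ones, and only those 2 of the group were well above background. The sizes of both rises therefore rest partly on non-IRI values not well above background. Leaving out an array ended the call of Cyp4f1 in 6 of 7 fits and of Cyp2c6v1 in 6 of 7, all but the fit without non-IRI 3, with adjusted p-values up to 0.0995 and 0.156.

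Other P450 genes were higher in IRI without passing. Cyp2c7, a retinoic acid hydroxylase, had levels of -0.94, 0.29 and -3.01 in IRI and -6.68, -7.17, -5.71 and -2.79 in non-IRI. Its difference of 4.37 ± 1.16 (SE; limma, adjusted p = 0.128) was the largest fitted among the members, and non-IRI 4 lay above IRI 3. On the non-IRI side 3 of the 4 arrays were not well above background, and with every level raised to the lowest one well above background on its array the difference was 2.95. Its second probe gave 2.98 ± 0.86 (0.162). Cyp2b3 had levels of -1.57, -2.13 and -2.02 in IRI and -4.12, -4.34, -2.73 and -4.33 in non-IRI, a difference of 1.97 ± 0.41 (0.0593) with no overlap. Cyp2c12 (at least 1.15-fold; limma, adjusted p = 0.0545), Cyp4f4 (at least 1.03-fold, 0.107) and Cyp4a3 (0.141, with no fold over background) also had no overlap, but none had a non-IRI array well above background, and each was well above it on 1 or 2 of the 3 IRI arrays. With levels raised to the lowest well above background, Cyp2c12 differed by 0.66 (limma, adjusted p = 0.413). Cyp2e1 differed by 1.54 (0.106) with no overlap, was well above background on 2 IRI arrays and 1 non-IRI array, and differed by 0.48 with levels raised to the lowest well above background.

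Among the alcohol dehydrogenases, Adh1c, of the class that oxidises ethanol and retinol, had levels of -0.36, -1.76 and -0.79 in IRI, -4.51, -2.81, -2.19 and -3.45 in non-IRI, and -6.39 in vitro. The groups did not overlap, and the difference of 2.27 ± 0.57 (SE) was not called (limma, adjusted p = 0.107). Adh5, the glutathione-dependent formaldehyde dehydrogenase, differed by 0.08 ± 0.17 (0.886). In the other P450 families 0 of 9 genes were called, with 3 higher at an unadjusted p under 0.05. The largest of these differences belonged to Cyp26b1, which degrades retinoic acid, at 1.12 ± 0.33 (0.161) with no overlap. Ugt1a6 and Ugt1a2 differed by 0.66 ± 0.33 (0.419) and 0.04 ± 0.23 (0.964).

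**Figure D3:**
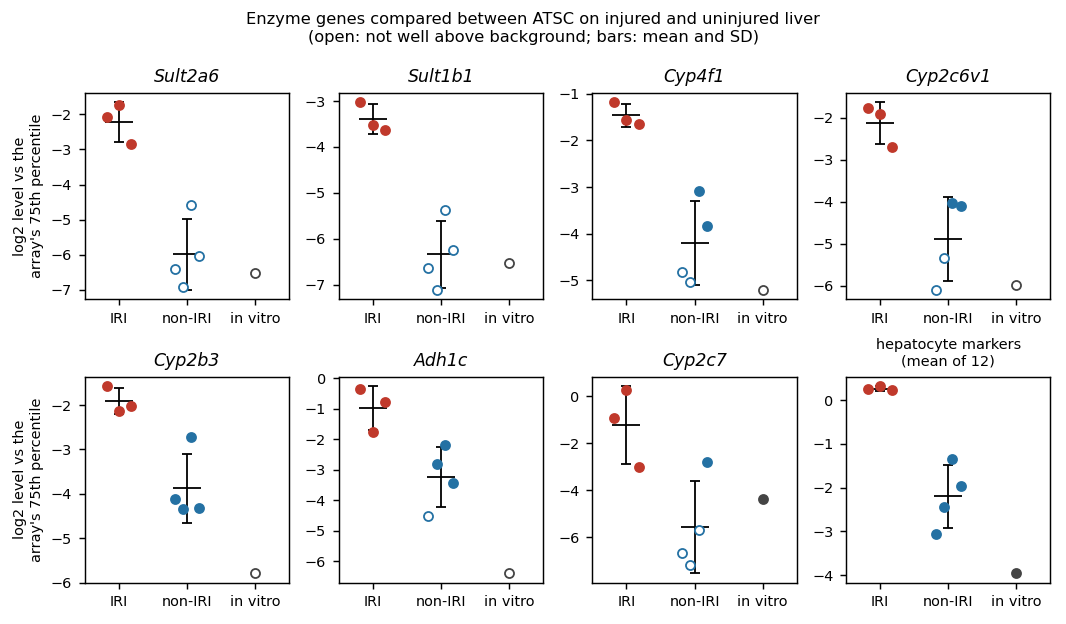
Level of 7 enzyme genes and the mean of 12 hepatocyte markers (y axes, log2 relative to the array's 75th percentile) in the 3 IRI, 4 non-IRI and 1 in vitro arrays. Points are arrays, open where not well above background, and bars are mean and SD. Sult2a6, Sult1b1, Cyp4f1 and Cyp2c6v1 are high on all 3 IRI arrays, as is the hepatocyte mean, while Cyp2c7 spreads widely in both liver groups.

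Under normexp background correction, or with the replicate number as a block, 0 of these 4 genes were called, and under normexp the log2 difference of Sult1b1 was -0.17, where the median of all genes was -0.22. Hepatocyte markers were also higher in IRI: 8 of 12 rose and 0 fell (limma; 9 and 0 at an unadjusted p under 0.05), with a median log2 difference of 3.04. Albumin (Alb) had levels of 4.20, 4.10 and 3.27 in IRI, -0.59, 0.45, 1.98 and 0.76 in non-IRI and -2.58 in vitro. The log2 difference of the macrophage markers was positive for 8 of 8, with 0 called (limma; 3 at an unadjusted p under 0.05). The part of hepatocyte RNA in the enzyme differences was not tested.

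The second comparison sets ATSC on liver, as the mean of the IRI and non-IRI groups, against the 1 culture array, which the fit assumes to vary like the liver arrays. Here 12 of 47 members were higher on liver and 6 lower (limma, adjusted p under 0.05), where 29.3% of all genes were called, 14.2% higher and 15.1% lower. The median log2 difference was 0.62 for the members and -0.19 for all genes, but -0.17 for the 17 members well above background on all 8 arrays and -0.14 under normexp without bright background spots. Of the hepatocyte markers 8 of 12 were higher on liver, and of the macrophage markers 7 of 8. The part of liver cell RNA in this comparison was not tested. The in vitro array lay outside the range of the 7 liver arrays for 26 of 47 members, against 61.2% of all genes. Within slide 1, IRI minus in vitro called 13 members higher and 6 lower, where 24.8% of all genes were called, 12.5% higher and 12.4% lower.

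Cyp2d5, a rat member of the drug-metabolising Cyp2d family, had levels of 0.93, 1.502 and 1.74 in IRI and 1.61, 0.91, 1.80 and 1.33 in non-IRI, and -6.45 in vitro, where it was not well above background. It was at least 57.0-fold higher on liver (limma, adjusted p = 1.33e-05). The 2 liver groups overlapped, with a difference of -0.02 ± 0.28 (SE). Cyp2d4 was at least 5.20-fold higher (0.00846), with liver levels of -3.18 to -1.48. Both lie in the same gene cluster on chromosome 7, and near-identical Cyp2d copies may share a probe's signal.

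Retinoic acid, the active form of vitamin A, is degraded by the Cyp26 enzymes. Cyp26b1 had levels of 3.05, 2.88 and 3.63 in IRI, 1.70, 2.83, 1.73 and 1.99 in non-IRI and -1.96 in vitro, and was 4.58 ± 0.46 (SE) higher on liver (limma, adjusted p = 0.000426). All 8 arrays were well above background, and every liver array lay above the culture array. Its relative Cyp26a1 was well above background on 2 of 3 IRI and 2 of 4 non-IRI arrays, but not in vitro, and was not called (0.110).

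Of the Ugt genes, Ugt1a2, a glucuronosyltransferase of the Ugt1 locus, had levels of 3.29, 3.01 and 3.13 in IRI, 3.47, 2.70, 3.34 and 2.91 in non-IRI and 0.94 in vitro, a rise of 2.18 ± 0.32 (SE; limma, adjusted p = 0.00254). Its second probe gave 2.86 (0.00046). Ugt1a6 differed by 0.48 ± 0.46 (0.468). The annotation ends both genes at the same base of chromosome 9 (96256264), as Ugt1a transcripts share their last exons, so a probe in the shared part would not separate them.

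Further members higher on liver were Adh1c (at least 5.02-fold; limma, adjusted p = 0.00768), Cyp2b3 (at least 2.91-fold, 0.00995), Cyp4f1 (at least 3.04-fold, 0.0325), Cyp2c6v1 (at least 1.89-fold, 0.0452) and Adh6a (at least 1.39-fold, 0.0380), none well above background in vitro. The liver mean of Cyp4f1 joins an IRI mean of -1.46 with a non-IRI mean of -4.20, and that of Cyp2c6v1 joins -2.13 with -4.89. For both genes non-IRI 1 and non-IRI 2 were not well above background. Cyp2c6v1 read lower on non-IRI 1 (-6.09) than in vitro (-5.97). Cyp4v3, a fatty acid hydroxylase, rose by 1.29 (0.00735), Cyp7b1, an oxysterol hydroxylase, by 1.55 (0.0236) and Cyp11b1, the steroid 11-beta-hydroxylase of the adrenal cortex, by 1.64 (0.0460). The calls of Cyp2c6v1 and Cyp11b1 were each lost in 6 fits that left out an array, that of Adh6a in 5 and that of Cyp4f1 in 4. Of the 18 calls, those of Cyp26b1, Cyp2d5 and Cyp51 held under every setting that tested them. Cyp2d5 was left untested by the filter that needs a probe above background on every array. Within slide 1, Sult2a6, Sult1b1 (at least 2.06-fold; limma, adjusted p = 0.0096) and Cyp2e1, which oxidises ethanol (at least 1.06-fold, 0.0322), were also called. Adh6a (0.0708) and Cyp7b1 (0.0518) were not.

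Of the 6 members lower on liver, 4 were P450 genes well above background on every array. Cyp51, the lanosterol demethylase of cholesterol synthesis, had levels of 1.00, 2.31 and 1.53 in IRI, 1.43, 1.67, 1.56 and 1.54 in non-IRI and 4.44 in vitro, and fell by 2.86 on the log2 scale (SE 0.42; limma, adjusted p = 0.00258). Cyp20a1, a P450 of unassigned substrate, read 2.45 to 2.89 on liver and 4.20 in vitro and fell by 1.54 (0.00273). Cyp1b1, which oxidises estrogens and polycyclic hydrocarbons, fell by 1.44 (0.0182) and Cyp2j4, an arachidonic acid epoxygenase, by 1.33 (0.0256). Cyp2j4 was not called without IRI 3 (0.0514).

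Adh7, the stomach-type alcohol dehydrogenase, had its highest level in vitro at -0.74, against -4.13, -5.62 and -6.43 in IRI and -5.55, -4.27, -6.90 and -3.81 in non-IRI. It was well above background on 2 of 7 liver arrays and fell by 4.52 (SE 1.16; limma, adjusted p = 0.0249). The size of this fall rests partly on liver values not well above background. In IRI, where no array was well above it, Adh7 was at least 13.1-fold lower than in vitro. Cyp2c11, the male-typical P450 of rat liver, was well above background in vitro alone, at -3.45, and was at least 2.13-fold lower on liver (0.0155), so it was kept only through the array on which it is high. The female-typical Cyp2c12 was well above background on IRI 2 alone, at -3.21.

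**Figure D4:**
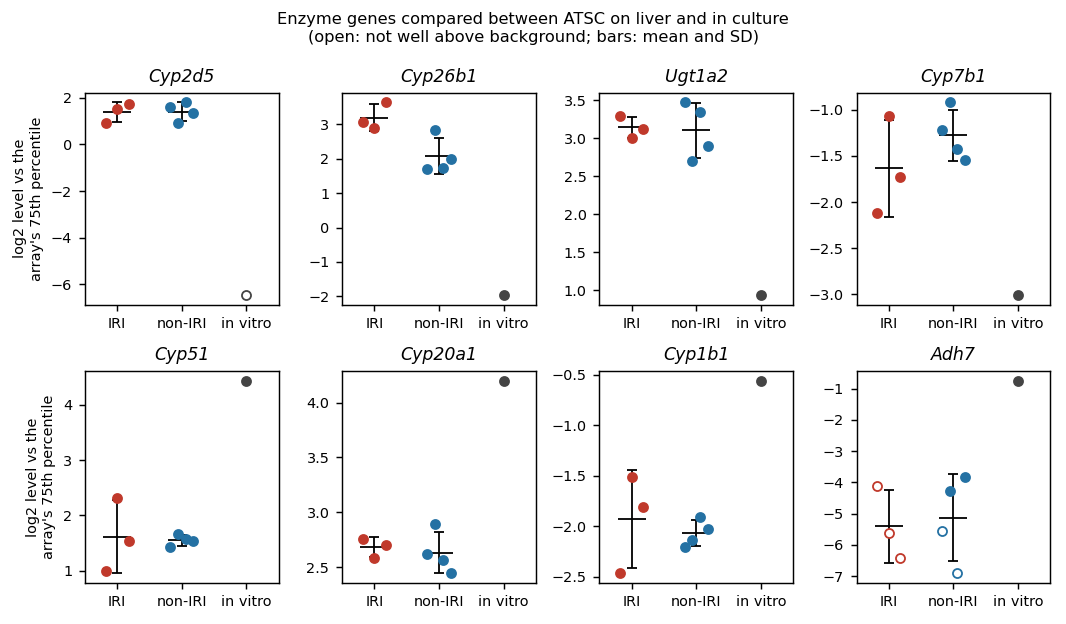
Level of 8 enzyme genes that differed between liver and culture (y axes, log2 relative to the array's 75th percentile) in the 3 IRI, 4 non-IRI and 1 in vitro arrays. Points are arrays, open where not well above background, and bars are mean and SD. The upper row lies higher on all 7 liver arrays and the lower row higher in vitro.

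Several members showed little difference between liver and culture. Cyp4f6, a fatty acid hydroxylase, lay between 2.90 and 3.94 on all 8 arrays, Cyp2t1 between -1.91 and -1.33, and Cyp27b1, which activates vitamin D, between -3.34 and -2.28. Their log2 differences were -0.10 ± 0.36, 0.01 ± 0.28 and -0.21 ± 0.31 (SE) for liver minus in vitro. For IRI minus non-IRI they were 0.14 ± 0.26, 0.03 ± 0.20 and -0.41 ± 0.22.

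The remaining members were dim, or passed neither test. The fatty acid hydroxylases Cyp4a1 and Cyp4a2 lay between -6.29 and -2.43, were well above background on 3 and 2 arrays, and differed by 0.61 ± 0.65 and 0.53 ± 0.71 (SE) in IRI minus non-IRI, mostly between values not well above background. Cyp2j3 and Cyp2b2 had negative differences there, of -0.70 ± 0.34 and -0.57 ± 0.34 (limma, adjusted p = 0.413 and 0.511), and Cyp2s1, well above background on 1 non-IRI array and in vitro, was not called (0.424). Cyp2j3 and Cyp2b2 were each well above background on all 4 non-IRI arrays and on 1 of 3 IRI arrays. Cyp4b1 was well above background on non-IRI 2 and in vitro, where it read -3.09, and its liver minus in vitro difference was -2.36 ± 1.02 (0.122). Cyp27a1, the mitochondrial sterol 27-hydroxylase, was well above background on all arrays, at -1.75 to -0.85 on liver and -0.22 in vitro, a difference of -0.98 ± 0.37 (0.0865). Cyp17a1, a steroid hydroxylase and lyase, read -4.09 in vitro and -5.85 to -4.41 on liver, where it was not well above background (at least 1.37-fold lower, 0.0623). Cyp4f5 lay between -0.76 and 0.21 on all arrays.

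**Figure D5:**
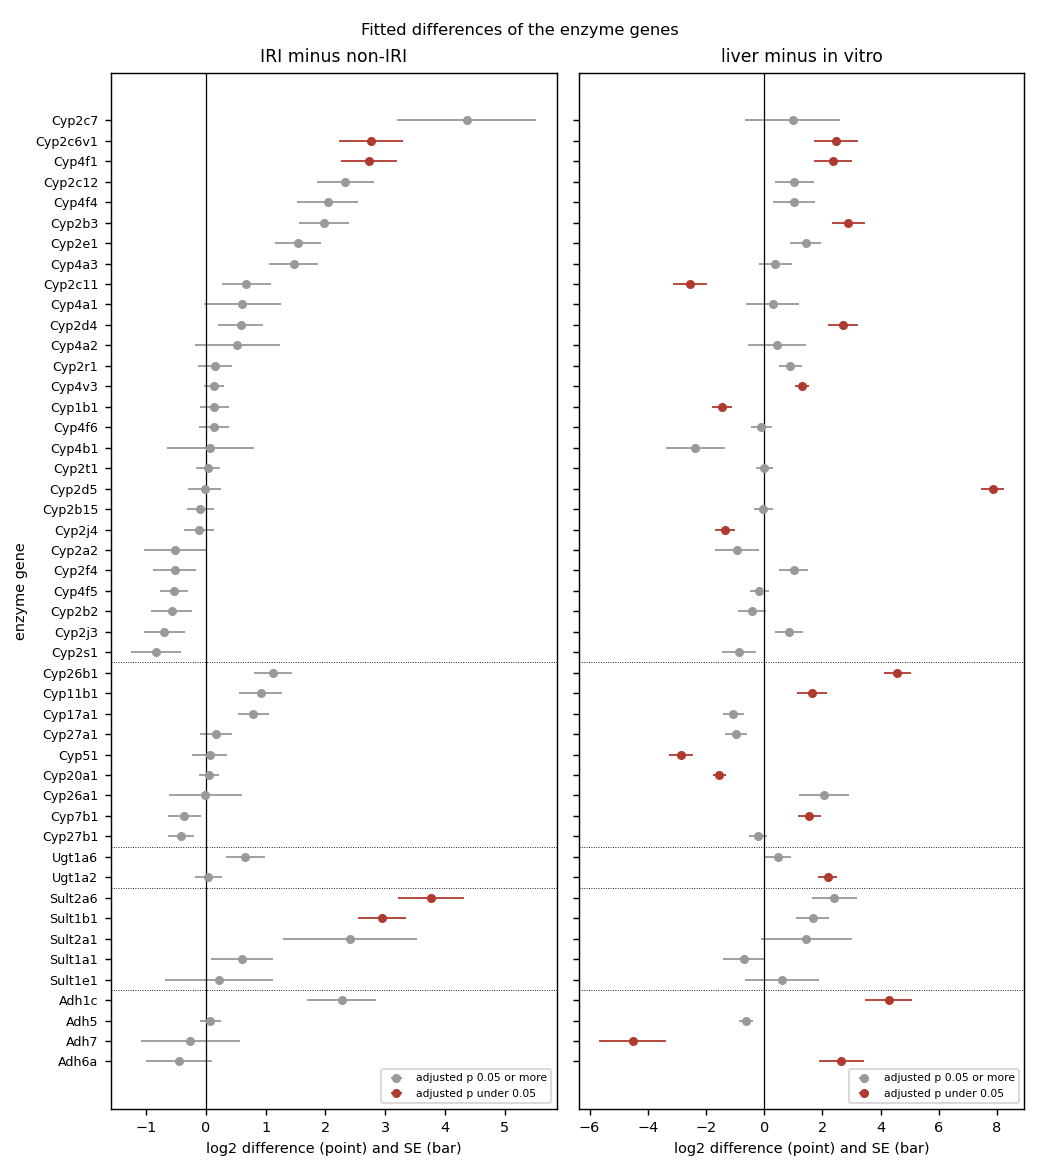
Fitted log2 difference (point) and SE (bar) of the 47 enzyme genes (rows, grouped by family) for IRI minus non-IRI (left) and liver minus in vitro (right), red where the adjusted p was under 0.05. The left panel has 4 red genes, all above 0, and the right panel 12 above and 6 below 0. Both panels use the same 7 liver arrays, and the points are fitted values, also where a group was not well above background.

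Genes that work beside these enzymes were counted in 5 lists. Of 25 other conjugation enzymes 1 rose in IRI over non-IRI: Gsta2, a glutathione transferase, with levels of -1.65, -2.03 and -2.29 in IRI, -5.29, -5.62, -5.32 and -4.63 in non-IRI and 0.87 in vitro (at least 6.19-fold; limma, adjusted p = 0.0025). Against culture, where 14.2% of all genes were called higher and 15.1% lower, 2 of the 25 were higher on liver and 11 lower, Gsta2 among the lower at -4.48. In the other 4 lists 0 genes were called in IRI minus non-IRI. An unadjusted p under 0.05 was reached by 14.3% of all genes, 5.47% higher and 8.88% lower. At that p there were 1 (lower) among 12 electron donors and cofactor enzymes and 7 (higher) among 31 other phase I enzymes. There were also 4 (higher) among 17 nuclear receptors and liver factors and 6 (higher) among 16 transporters. Against culture, of the 12 electron donors and cofactor enzymes 1 was higher on liver (Fdxr, the adrenodoxin reductase that feeds mitochondrial P450s, 2.01) and 4 lower, Cyb5r3 and Cyb5b among them. Of 31 other phase I enzymes 3 were higher (Pon3, Hsd17b13 and Fmo5) and 8 lower (Nqo1 at -3.44). Of 16 transporters 5 were higher and 2 lower. Abcb4, a phospholipid exporter, had the smallest p among them (at least 9.38-fold higher; limma, adjusted p = 2.3e-05), and Slco2b1, an organic anion importer, was at least 13.3-fold higher (0.000236). Of the nuclear receptors and liver factors, Nr0b2 and Dbp were higher among 16 and 0 were lower (limma; 3 higher and 1 lower at an unadjusted p under 0.05). Nr1i2 and Nr1i3, the receptors that induce Cyp3a and Cyp2b genes by drugs, were not well above background on any array.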

How the data were processed

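RNA of 8 samples was hybridised to 1-colour Agilent arrays. Spot intensity in the deposited scanner files was background-subtracted by Feature Extraction 11.0.1.1, per the file headers, though version 9.1 stands in the submitters' processing notes. The authors also deposited a table of log2 values. Comparison with the scanner values (r of 0.9997 or more across probes) showed that the authors centred each probe on its median over arrays, in the same direction. A constant added to an array hardly changes this r, so it does not show which percentile was used to scale the authors' table. Its column medians were 0.18, -0.07 and -0.05 (IRI 1 to 3), 0.09, -0.15, -0.02 and -0.02 (non-IRI 1 to 4) and 0.16 (in vitro); it served as an alternative.

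Values were log2 of the processed signal minus each array's 75th percentile. Spots marked as outliers (45 to 117 per array) and 1639 control spots were left out, and no other spot was saturated. Probes well above background on at least 1 array were kept (26932), each gene being represented by its probe with the highest mean. Of 41012 probes 17541 matched a RefSeq symbol. A limma model (version 3.58.1, R 4.3.3) of the 3 group means used all 8 arrays, with Benjamini-Hochberg adjustment over 23181 genes (23169 against culture). The script was tested on simulated data.

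Named genes were the markers, all called members, and the members of each family with the highest levels and the largest differences; others were chosen after their values were seen. Members and lists were chosen with earlier results of these data known. Alternatives were other scalings, the authors' table, normexp, filters, probe rules, a replicate block and leaving out arrays. Normexp used the median spot signal in place of the planned mean. The number of arrays limits the precision.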

Additional observations from a re-analysis of the deposited data

Results flagged for a closer look

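Of 48 sets of values over the 4 non-IRI arrays, 3 held an array far from the rest by Dixon's test, where chance marks about 1 in 20 such groups. Cyp2b3 read -2.73 on non-IRI 3 and -4.34 to -4.12 on the others, and this array also had the highest hepatocyte mean of its group (-1.34). Cyp2r1, a vitamin D 25-hydroxylase, read -3.80 on non-IRI 2, the array on which alone it was well above background, while the rest of its group read -4.86 to -4.76. Sult1e1 read -3.91 on non-IRI 1, again the array on which alone it was well above background, while the rest of its group read -7.15 to -6.89.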

How the results depend on the processing

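The 4 members that rose in IRI over non-IRI became 0 under normexp (2 at an unadjusted p under 0.05) and 0 with the replicate block (15). The strict filter, which needs a probe above background on every array, called 0 of 17 (3) and left those 4 untested. Normexp with bright background spots set to the median called 2, a setting chosen after seeing the data. The floor and the IRI minus in vitro contrast within slide 1 were also chosen then. Leaving out 1 array gave 2 to 5, and 2 when IRI 2 or any non-IRI array but the third was omitted. For all genes the 613 calls became 0 under normexp (683 unadjusted), 0 with the block (3020), 407 under normexp without bright spots, and 272 to 638 without an array (omitting IRI 2 gave 302, IRI 3 gave 272, and non-IRI 1, 2 and 4 gave 349, 381 and 365). With the block the adjusted p was 0.179 for Cyp2c6v1, 0.141 for Cyp4f1, 0.107 for Sult1b1 and 0.162 for Sult2a6. Same-numbered IRI and non-IRI arrays correlated in their deviations at 0.165, 0.120 and 0.0839, each highest for its own number, but the third is under 0.1 and the numbers were not taken to pair samples. The members' median was -0.24 under normexp, where that of all genes was -0.22, and 0.11 to 0.29 without an array. Under normexp the sign turned for Cyp2c12 (-0.24), Cyp2e1 (-0.39), Cyp4f4 (-0.35) and Sult1b1 (-0.17).

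For liver minus in vitro the 18 called members became 3 under normexp, 9 of 17 under the strict filter, 10 under normexp without bright spots and 13 to 18 without an array. All genes gave 635 under normexp and 5188 to 7348 without an array, and the split of 3301 higher and 3487 lower became 2666 and 5914 with median scaling, which moved the median of all genes from -0.19 to -0.50, and 1896 and 3630 under the strict filter. The members' median was 0.32 with median scaling, 0.17 under normexp, -0.17 with the strict filter, -0.14 under normexp without bright spots, 0.048 with levels raised to the floor and 0.40 to 0.77 without an array (0.40 without non-IRI 1). Normexp without bright spots turned Cyp2e1 (-0.14), Cyp2r1 (-0.22) and Sult1b1 (-0.072). Cyp26b1 and Cyp51 were called under every setting run, and Cyp2d5 under every setting but the strict filter, which left it untested.

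The 1 other metabolism gene called in IRI minus non-IRI became 2 with median scaling, quantile normalization, no filter, the mean of probes and the floor, 0 under normexp (4 unadjusted), with the strict filter (13) and with the block (17), and 1 to 2 without an array (2 when IRI 3 or any non-IRI array but the first was omitted). The 38 against culture became 3 under normexp and 27 to 44 without an array. The cause of these changes was not tested, except that the strict filter tests fewer genes. The slide block could not be fitted, since each group lies on 1 slide.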
